A study of Homo sapiens with 6 samples.

Results

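The transcripts of the aminoacyl-tRNA synthetases and of their scaffold proteins were examined in PC3, a cell line from a human prostate cancer, after knockdown of VprBP. The members were all rows of the deposited gene table with a synthetase symbol ending in 1 or 2, together with EPRS1, FARSA, FARSB, AIMP1, AIMP2 and EEF1E1. This gave 40 of 12227 listed genes, of which 20 encode cytosolic or shared enzymes, 17 encode mitochondrial enzymes and 3 encode scaffold proteins. The rule used gene symbols and no measured values, although it was chosen with earlier results of these data known. None of the 40 was set aside here for low values. In the knockdown group, 3 libraries came from PC3 cells labelled VprBP sh1 to sh3, and in the control group 3 libraries came from PC3 cells labelled Control sh1 to sh3 and described as wild type. Both groups carry a short hairpin RNA (shRNA) and were grown in serum-supplemented medium. The labels give neither the hairpin sequences nor what the numbers 1 to 3 stand for, so the p-values measure the spread between these libraries, which may be technical.

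Aminoacyl-tRNA synthetases join each amino acid to its transfer RNA and so supply charged tRNA to the ribosome. Cytosolic and mitochondrial translation mostly use separate enzymes encoded by separate nuclear genes, while GARS1 and KARS1 each encode the enzyme for both compartments. Several cytosolic enzymes are bound in a multi-synthetase complex by the scaffold proteins AIMP1, AIMP2 and EEF1E1. Many cytosolic synthetase genes are known targets of ATF4, the transcription factor of the amino acid response, which binds C/EBP-ATF response elements, and WARS1 is known as an interferon-induced gene.

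DCAF1, the gene that encodes VprBP, had values of 38.5, 41.1 and 40.2 in the knockdown libraries, against 79.4, 78.5 and 78.7 in the control libraries. The knockdown mean was thus 50.6% of the control mean (log2 fold change -0.97, SE 0.05, limma adjusted p = 3.56e-11). An exact two-sided permutation test gave p = 0.1, the smallest that 3 libraries against 3 allow. Values are the authors' scaled read numbers per gene, in which a library's 75th percentile is close to 79.0, and the depth behind them was 23029454 to 39633869 estimated reads per knockdown library and 22981884 to 32293151 per control library. The median difference between libraries over all genes was 15.7% to 17.9% between groups and 4.42% to 6.60% within groups. The epithelial markers EPCAM, KRT8, KRT18, KRT19 and CDH1 were all listed, with means between 251 and 829. KRT8 averaged 619 in knockdown cells and 378 in control cells, and KRT18 averaged 693 in knockdown cells and 455 in control cells. The knockdown and control means were 279 and 251 for EPCAM, 829 and 825 for KRT19, and 323 and 342 for CDH1. What these differences mean for the results below was not tested. KLK3, which PC3 cells are known to express little, was not analysed here. Of 5 markers of other cell types, CD68, PECAM1 and COL1A1 were listed. PECAM1 had a mean of 23.3 in knockdown cells and 54.2 in control cells, and the other two differed by less than 2% between the group means; their part in the results below was not tested.

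Among the 40 genes, 17 fell, 10 rose and the other 13 missed the threshold of a limma adjusted p under 0.05 over all 12227 genes. The called share was 67.5%, against 60.9% of all genes, so the share called as such lies near the background. The direction was uneven: 42.5% of the members fell, against 27.8% of all genes, and 25% rose, against 33.0% of all genes. The decreases lay mostly in the cytosolic enzymes, where 13 of 20 fell, 5 rose and 2 had no call; their median log2 fold change was -0.20. Of the 17 mitochondrial enzymes, 4 fell, 5 rose and 8 had no call; their median log2 fold change was 0.00. None of the 3 scaffold genes was called, and the median log2 fold change of all genes was 0.02. The differences were modest. Among the decreases the largest was 1.45-fold, for CARS1, and among the increases it was 1.56-fold, for AARS2.

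**Figure D1:**
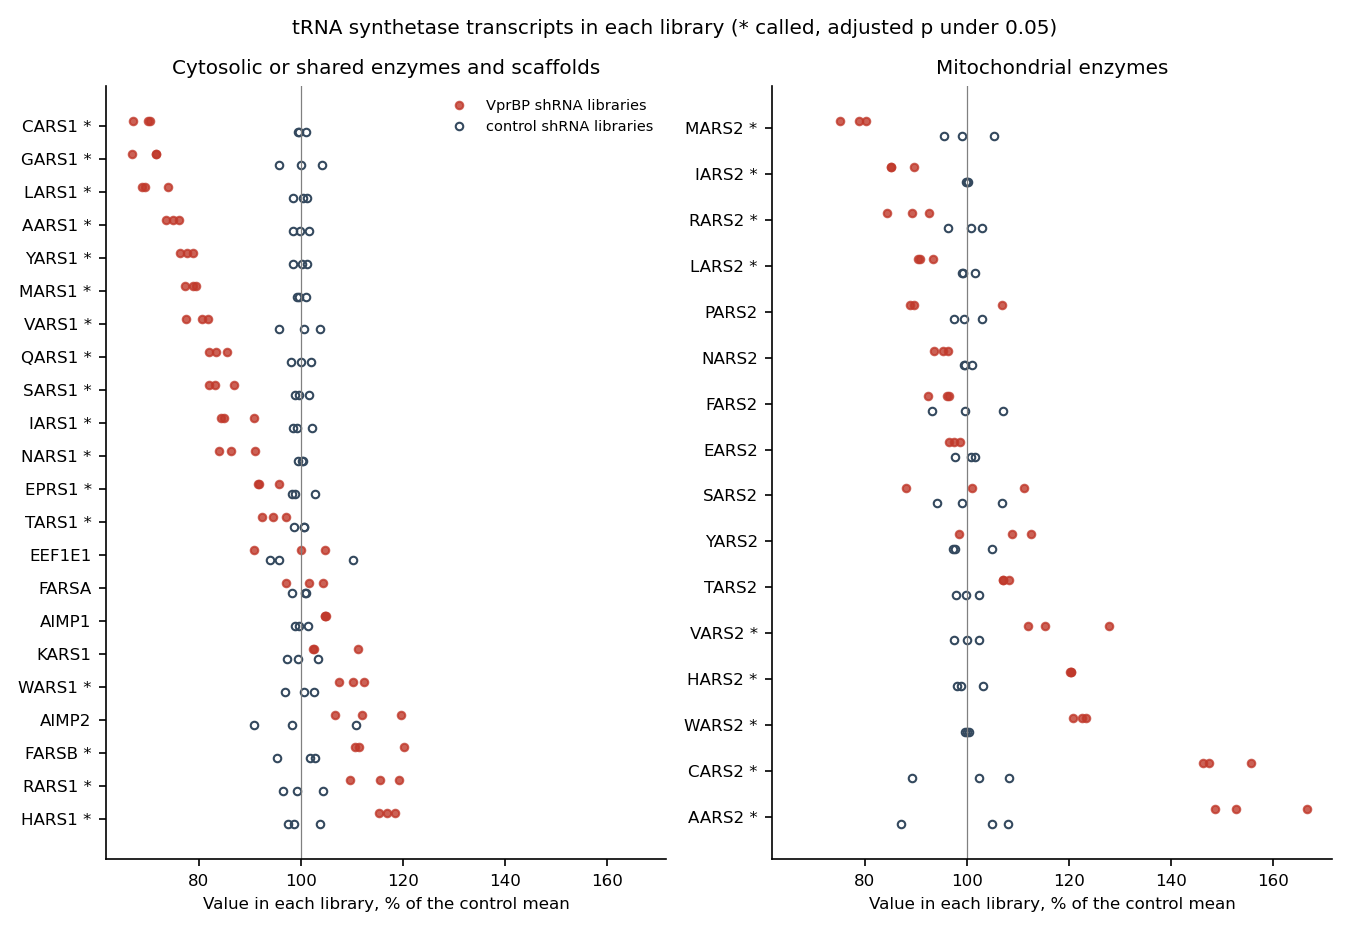
Value of each of 38 genes in each library as a percentage of that gene's control mean, for the cytosolic or shared enzymes with the scaffolds (left) and the mitochondrial enzymes (right). Filled points are the 3 VprBP shRNA libraries, drawn above the open points of the 3 control libraries, and an asterisk marks a called gene; most cytosolic enzymes have their knockdown points left of the control points, and CARS2 and AARS2 have theirs farthest to the right.

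The promoter windows of the synthetase genes were read for the C/EBP-ATF element, because many cytosolic synthetase genes are known ATF4 targets. The windows are those of RefSeq on GRCh38.p14, each from 250 bases before to 50 bases after an annotated start. A window was found for 33 of the 40 genes, and LARS1, VARS1, YARS1, AARS2 and VARS2 were among those without one. The motif searched was TGATGNAA on both strands, and a match on the opposite strand is printed as its reverse complement. It was found for 7 of the 14 members that fell and have a window, for none of 7 that rose and for 1 of 12 that were not called, against 2.63% of the 9422 listed genes with a window and 3.75% of the 2640 called lower. Over all 35116 windows the share was 3.62%. By class, the motif was found for 7 of 16 cytosolic and 1 of 14 mitochondrial members with a window. Because the decreases lay mostly in cytosolic enzymes, the splits by call and by class are not independent. The motif and the members were chosen with earlier results of these data known. A match describes letters only, and no match says nothing of the factor. The matches of the 7 genes that fell are printed here with up to 25 bases on either side, 5′ to 3′ on the gene's strand, with the motif in capitals.
AARS1: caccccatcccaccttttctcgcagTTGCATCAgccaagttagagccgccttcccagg
CARS1: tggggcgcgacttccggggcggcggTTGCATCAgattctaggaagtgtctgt
GARS1: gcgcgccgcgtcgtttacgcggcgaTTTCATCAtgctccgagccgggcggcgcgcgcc
IARS1: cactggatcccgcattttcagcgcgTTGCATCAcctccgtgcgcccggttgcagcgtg
MARS1: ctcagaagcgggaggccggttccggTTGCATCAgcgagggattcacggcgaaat
NARS1: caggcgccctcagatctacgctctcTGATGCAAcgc
TARS1: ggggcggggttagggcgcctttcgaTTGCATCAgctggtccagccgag

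The same 8 letters, TTGCATCA, stand in AARS1, CARS1, IARS1, MARS1 and TARS1, and NARS1 has their reverse complement. GARS1 differs from them within the N of the motif. Counted from the annotated start, whose first transcribed base is 1, the motif begins at -187 in AARS1, -33 in GARS1, -13 in IARS1, -4 in MARS1, -2 in CARS1, 3 in TARS1 and 15 in NARS1. The printed stretches are chr16:70289661-70289718 (minus strand) for AARS1, chr11:3057399-3057450 (minus strand) for CARS1 and chr7:30594820-30594877 (plus strand) for GARS1. Those of IARS1, MARS1, NARS1 and TARS1 are chr9:92293678-92293735 (minus strand), chr12:57488039-57488092 (plus strand), chr18:57621812-57621847 (minus strand) and chr5:33440942-33440989 (plus strand). The match in a gene that was not called is in YARS2, a mitochondrial enzyme, where it begins at -197.

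The E-box CACGTG, the letters bound by MYC, was searched in the same windows. It was found for 2 of 14 members that fell (IARS1 and MARS2), 1 of 7 that rose (CARS2) and 2 of 12 that were not called (AIMP2 and EARS2), against 12.6% of listed genes with a window.

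Of 12 cytosolic synthetase genes known as ATF4 targets, 11 fell and WARS1 rose, with a median log2 fold change of -0.30. The share that fell was 91.7%, against 65% of all 20 cytosolic enzymes and 27.8% of all genes, and the difference between these shares was not tested. The list was taken from textbook knowledge with earlier results of these data known, so it lends no independent support to a direction. CARS1, which charges cysteine tRNA, had values of 75.8, 75.3 and 72.1 in knockdown libraries, against 107, 107 and 109 in control libraries. The gene lies at chr11:3000922-3057613 (hg38, minus strand). All 3 knockdown values lay well below the control values, by 30.8% on average (log2 fold change -0.53, SE 0.04, limma adjusted p = 1.25e-08).

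GARS1, the glycine enzyme of both cytosol and mitochondria, had 233, 218 and 233 in knockdown libraries, against 326, 339.6 and 312 in control libraries. The gene lies at chr7:30580533-30634033 (hg38, plus strand). Its groups did not overlap, and the knockdown mean was 30.0% lower (log2 fold change -0.51, SE 0.04, limma adjusted p = 1.08e-08). GARS1 overlaps the long noncoding RNA gene GARS1-DT on the opposite strand over 14754 bases, and the mean of that gene was 7.42 in knockdown cells and 7.74 in control cells. LARS1, the leucine enzyme of the complex, which also acts as a leucine sensor for mTORC1, had 265, 267 and 284 in knockdown libraries, against 386, 389.8 and 379 in control libraries. LARS1 lies at chr5:146110566-146182696 (hg38, minus strand), and its decrease was 29.3% with no overlap (log2 fold change -0.50, SE 0.03, limma adjusted p = 3.68e-09).

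AARS1, the alanine enzyme, had 205, 208 and 201 in knockdown libraries, against 278, 269 and 273 in control libraries. It was 25.1% lower, and the libraries of a group lay within a few percent of each other (log2 fold change -0.42, SE 0.03, limma adjusted p = 1.90e-08). YARS1, the tyrosine enzyme, had 174, 168 and 171 in knockdown libraries, against 221, 217 and 223 in control libraries. It was 22.4% lower, again with no overlap (log2 fold change -0.36, SE 0.03, limma adjusted p = 1.38e-07). MARS1, the methionine enzyme of the complex, averaged 275 ± 3.83 in knockdown cells and 349 ± 3.29 in control cells (SD, n = 3 each), a decrease of 21.4%. MARS1 overlaps DDIT3, another ATF4 target, on the opposite strand over 982 bases, and DDIT3 had a mean of 9.97 in knockdown cells and 9.96 in control cells.

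SARS1, IARS1 and NARS1, the serine, isoleucine and asparagine enzymes, were 15.9%, 13.4% and 12.9% lower. The smallest decreases among the called members were those of EPRS1 and TARS1. EPRS1, a bifunctional protein that charges both glutamate and proline tRNA, had 586, 584 and 612 in knockdown libraries, against 628, 656 and 631 in control libraries. The groups were close but did not overlap, and the decrease of 6.95% passed the test (log2 fold change -0.10, SE 0.03, limma adjusted p = 0.00979). Without control replicate 2 the EPRS1 call was lost, with an adjusted p of 0.0565. TARS1, the threonine enzyme, was 5.35% lower with a limma adjusted p of 0.0444, and its call was lost when any library other than knockdown replicate 3 was left out.

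WARS1, the tryptophan enzyme, moved the other way from the other 11. It had 139.7, 136 and 142 in knockdown libraries, against 127, 129.85 and 123 in control libraries. The groups did not overlap, and the increase of 10.1% passed the test (log2 fold change 0.14, SE 0.04, limma adjusted p = 0.00546). The interferon factor genes rose in the same cells, all 7 of 7, among them IRF9, MX1 and IFIT1, against a background of 33.0% of all genes. They too were chosen with earlier results of these data known, so this count lends no independent support to a direction. IRF9 averaged 64.4 ± 1.12 in knockdown cells and 8.47 ± 1.40 in control cells, and MX1 averaged 151 ± 3.90 in knockdown cells and 9.05 ± 0.560 in control cells (SD, n = 3 each). The change of WARS1 was thus far smaller in size than those of these genes, and whether they are connected was not tested.

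One of the windows of WARS1 holds the interferon-stimulated response element motif (GAAA, any 2 bases, GAAA), found in 3.66% of listed genes with a window, and the interferon-gamma-activated site motif TTCNNNGAA, found in 8.35%. Among the members with a window, the first was also found in EARS2, which was not called, and the second in CARS1 and TARS1, which fell, in WARS2, which rose, and in PARS2, which was not called. Both WARS1 matches are shown because WARS1 is the synthetase gene known for this response. The first begins at -55 and the printed stretch is chr14:100375368-100375427, and the second begins at -142 in chr14:100375456-100375514, both on the minus strand with the motif in capitals.
WARS1 response element: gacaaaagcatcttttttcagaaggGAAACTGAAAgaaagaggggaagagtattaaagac
WARS1 activated site: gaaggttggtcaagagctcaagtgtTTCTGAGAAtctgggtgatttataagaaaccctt

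Among the 8 remaining cytosolic enzymes, 2 fell, 4 rose and 2 had no call, and the median log2 fold change was 0.13. Thus 25% fell and 50% rose, against 27.8% and 33.0% of all genes, so the share that fell lies near the background. VARS1, the valine enzyme, had 252, 255 and 242 in knockdown libraries, against 324, 299 and 314 in control libraries. It was 20.04% lower with no overlap (log2 fold change -0.32, SE 0.04, limma adjusted p = 1.55e-06). QARS1, the glutamine enzyme of the complex, was 16.4% lower, at 181 ± 3.76 in knockdown cells against 216 ± 4.30 in control cells (SD, n = 3 each).

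HARS1, the histidine enzyme, had 81.9, 84.1 and 83.0 in knockdown libraries, against 69.2, 73.7 and 70.1 in control libraries. It was 16.9% higher with no overlap between the groups (log2 fold change 0.22, limma adjusted p = 3.05e-04). RARS1, the arginine enzyme of the complex, had 99.6, 94.5 and 103 in knockdown libraries, against 85.5, 89.8 and 83.1 in control libraries. It was 14.9% higher, again without overlap (log2 fold change 0.20, limma adjusted p = 0.00128).

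Phenylalanine tRNA is charged in the cytosol by a tetramer of FARSA and FARSB chains. FARSB, which encodes the beta chain, had 115, 114 and 124 in knockdown libraries, against 98.3, 106 and 105 in control libraries, and was called 14.1% higher (log2 fold change 0.19, SE 0.05, limma adjusted p = 0.00174). FARSA, which encodes the alpha chain, had 203, 197 and 189 in knockdown libraries, against 196, 191 and 196 in control libraries, and the groups overlapped (log2 fold change 0.01, SE 0.04, limma adjusted p = 0.754). KARS1, the lysine enzyme of the complex and of mitochondria, had 185, 186 and 201 in knockdown libraries, against 179.8, 187 and 176 in control libraries. The ranges overlapped and the difference did not pass the test (log2 fold change 0.07, SE 0.04, limma adjusted p = 0.121).

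**Figure D2:**
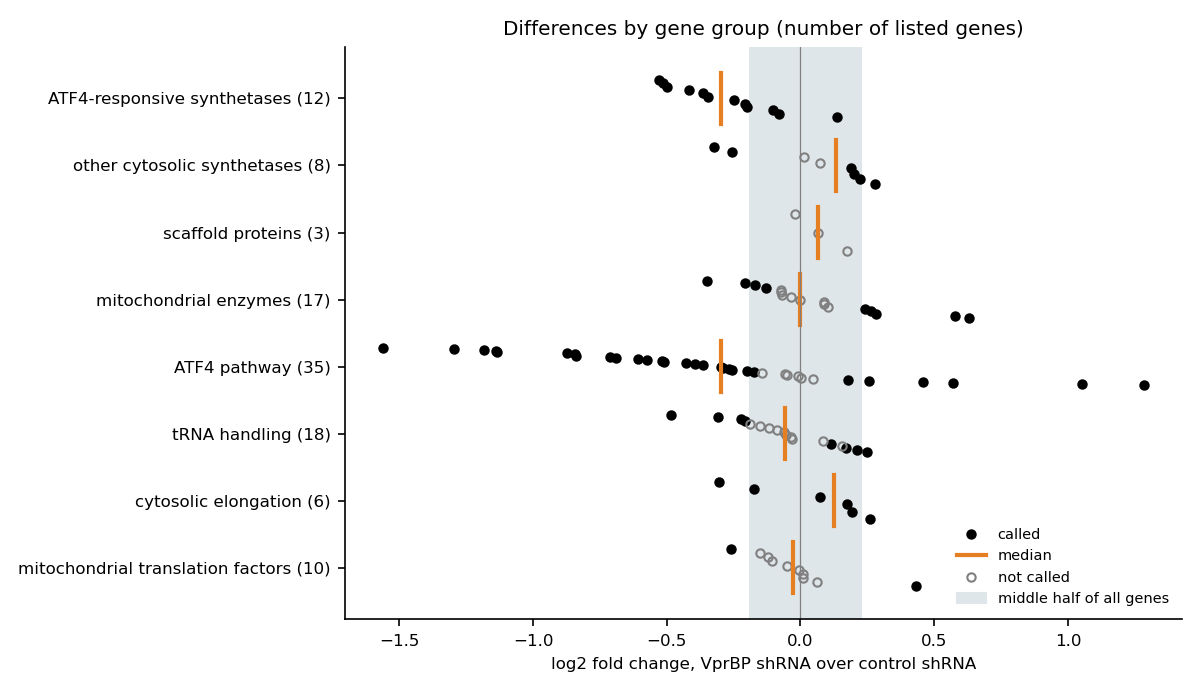
Log2 fold change (VprBP shRNA over control shRNA) of each listed gene in 8 groups, with called genes as filled points, genes not called as open points, the group median as an orange line and the interquartile range of all 12227 genes shaded. The ATF4-responsive synthetases and the ATF4 pathway both have a median of -0.30, while the mitochondrial enzymes have a median of 0.00.

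The enzymes were also sorted by features that the choice of members did not use. Of 8 enzymes bound in the multi-synthetase complex, 5 fell and 2 rose, and of 12 cytosolic enzymes outside it, 8 fell and 3 rose. Class I and class II enzymes have unrelated catalytic folds. Of 9 cytosolic class I genes, 7 fell and 2 rose, and of 10 class II genes, 5 fell, 3 rose and 2 were not called, with EPRS1 left out because it holds both kinds. The background for these counts is the 27.8% of all genes that fell and the 33.0% that rose. No difference between these subgroups was tested.

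The scaffold genes showed no called difference. AIMP1, which also gives rise to a secreted cytokine, had 59.9, 60.005 and 59.9 in knockdown libraries, against 58.0, 57.0 and 56.6 in control libraries. The ranges were apart but the difference of 4.79% did not pass the test (log2 fold change 0.07, SE 0.04, limma adjusted p = 0.205). AIMP2, the core scaffold that holds KARS1 and the AIMP1 arm, had 34.5, 30.8 and 32.3 in knockdown libraries, against 28.3, 32.0 and 26.2 in control libraries. Control replicate 2 lay among the knockdown values, and the call was missed narrowly (log2 fold change 0.17, SE 0.07, limma adjusted p = 0.0501). Without control replicate 2 the adjusted p was 0.00850. AIMP2 overlaps EIF2AK1, a gene with far higher values, on the opposite strand over 1588 bases. EIF2AK1 had a mean of 209 in knockdown cells and 217 in control cells. The strand setting is not known, so reads from the overlap cannot be assigned with certainty. EEF1E1, known as AIMP3 or p18, had 48.0, 41.6 and 45.9 in knockdown libraries, against 43.9, 50.5 and 43.1 in control libraries, with fully mixed ranges (log2 fold change -0.02, SE 0.07, limma adjusted p = 0.823).

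Among the mitochondrial enzymes, AARS2 and CARS2 rose most. AARS2, the alanine enzyme of mitochondria, had 25.7, 28.8 and 26.4 in knockdown libraries, against 18.7, 15.1 and 18.1 in control libraries. AARS2 lies at chr6:44298731-44313347 (hg38, minus strand) and was 1.56-fold higher with no overlap (log2 fold change 0.63, SE 0.08, limma adjusted p = 6.74e-06). CARS2, the cysteine enzyme of mitochondria, which also makes cysteine persulfides, had 40.9, 38.8 and 38.5 in knockdown libraries, against 26.9, 23.5 and 28.5 in control libraries. CARS2 lies at chr13:110641412-110713603 (hg38, minus strand). It was 49.8% higher, and the lowest knockdown value exceeded the highest control value (log2 fold change 0.58, SE 0.07, limma adjusted p = 2.33e-06).

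WARS2, HARS2 and VARS2 also rose. WARS2, the mitochondrial tryptophan enzyme, had 25.6, 25.5 and 25.1 in knockdown libraries, against 20.8, 20.9 and 20.7 in control libraries, so the spread within groups was far smaller than the 22.3% between them (log2 fold change 0.28, SE 0.06, limma adjusted p = 9.64e-04). HARS2, a near relative and head-to-head neighbour of HARS1, had 40.8, 40.9 and 40.9 in knockdown libraries, against 33.3, 33.6 and 35.0 in control libraries (20.4% higher, limma adjusted p = 4.17e-04). HARS1 and HARS2 share 108 bases on opposite strands and are similar in sequence, so their reads may have been split between them. HARS2 also overlaps ZMAT2 on the same strand over 626 bases. ZMAT2 had a mean of 68.0 in knockdown cells and 60.5 in control cells. HARS1 also overlaps WDR55 on the opposite strand over 1090 bases. WDR55 had a mean of 59.6 in knockdown cells and 61.9 in control cells. What these overlaps add to the values of HARS1 and HARS2 was not tested. VARS2, the mitochondrial valine enzyme, had 55.9, 62.0 and 54.3 in knockdown libraries, against 49.6, 47.2 and 48.5 in control libraries (18.4% higher, limma adjusted p = 0.00131). The whole of VARS2 lies inside a listed long noncoding RNA gene on the same strand, whose mean was 5.41 in knockdown cells and 3.48 in control cells, so reads cannot be assigned between them with certainty.

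The 4 mitochondrial decreases were those of MARS2, IARS2, LARS2 and RARS2. MARS2, the mitochondrial methionine enzyme, had 24.2, 25.4 and 25.8 in knockdown libraries, against 33.9, 31.8 and 30.7 in control libraries. It was 21.9% lower with no overlap (log2 fold change -0.35, SE 0.06, limma adjusted p = 1.47e-04). IARS2, the isoleucine enzyme of mitochondria, averaged 354 ± 10.3 in knockdown cells and 409 ± 0.723 in control cells (SD, n = 3 each) and was 13.3% lower (limma adjusted p = 3.70e-05).

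LARS2 and RARS2, the leucine and arginine enzymes, were 8.53% and 11.3% lower, with limma adjusted p-values of 0.0173 and 0.0413. The call of LARS2 was lost without knockdown replicate 1 or control replicate 1 (adjusted p = 0.0555 and 0.0713). That of RARS2 was lost without knockdown replicate 1 or 3 or control replicate 2 or 3, with adjusted p-values of 0.0510 to 0.155. The mitochondrial enzymes without a call included EARS2, FARS2, NARS2, PARS2, SARS2, TARS2 and YARS2. Their log2 fold changes lay between -0.07 for PARS2 and 0.10 for TARS2, and TARS2 came closest to a call (limma adjusted p = 0.0541). PARS2, the proline enzyme, had the lowest level, with 10.2, 8.46 and 8.52 in knockdown libraries, against 9.47, 9.28 and 9.80 in control libraries.

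**Figure D3:**
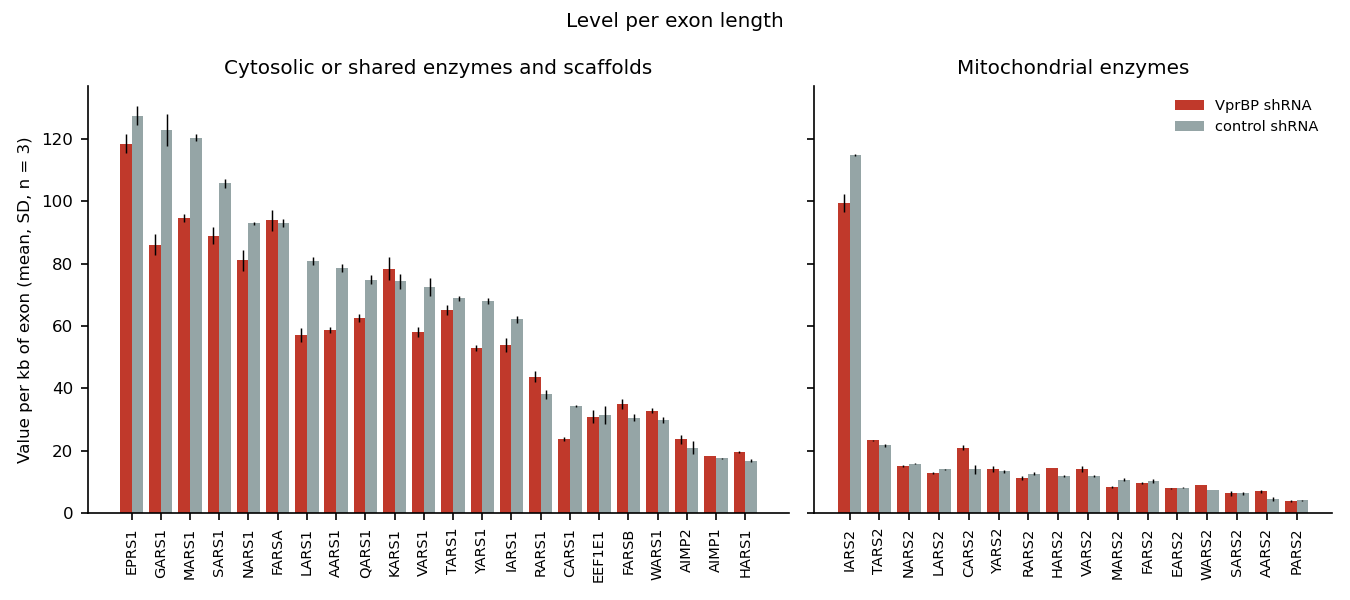
Mean value per kilobase of exon for each of 38 genes, with SD over 3 libraries as error bars, VprBP shRNA left of control shRNA in each pair, ordered by the control level. IARS2 stands above the other mitochondrial enzymes, at 99.5 per kilobase in knockdown cells and 115 in control cells.

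Levels were compared between genes after division by the exon length in GENCODE 29. The median level of the cytosolic enzymes was 58.4 per kilobase in knockdown cells and 73.4 in control cells, and that of the mitochondrial enzymes was 12.8 in knockdown cells and 11.98 in control cells. EPRS1 had the highest level per kilobase in both groups, 118 ± 3.04 in knockdown cells and 127 ± 3.06 in control cells (SD, n = 3 each). HARS1 was lowest among the cytosolic enzymes, at 19.6 ± 0.268 in knockdown cells and 16.8 ± 0.559 in control cells. IARS2 was the exception among the mitochondrial enzymes, and TARS2, for example, reached 23.3 per kilobase in knockdown cells and 21.7 in control cells. Over the 20 cytosolic enzymes, the log2 level per kilobase and the log2 fold change had a Pearson correlation of -0.46 and a Spearman correlation of -0.35, and over the 17 mitochondrial enzymes they had -0.17 and -0.04. These are descriptions across genes, which share the same 6 libraries.

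Summed over the 20 cytosolic genes, the values were 4134, 4103 and 4243 in knockdown libraries, against 4792, 4824 and 4731 in control libraries, without overlap. Over the 17 mitochondrial genes they were 967, 981 and 990.1 in knockdown libraries, against 1005, 990.6 and 1000.5 in control libraries, so that these ranges nearly met. IARS2 alone made up 354 of the mitochondrial mean sum of 979.7 in knockdown cells. In bulk libraries, fewer cells with a transcript and less transcript per cell cannot be told apart.

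The cytosolic and mitochondrial enzymes of each amino acid were set against each other within libraries, as the log2 ratio of their values without correction for length. EPRS1 served for both glutamate and proline, so these ratios are not separate, and FARSA without FARSB served for phenylalanine. Of 17 ratios, 10 were lower and 2 higher in all knockdown libraries than in all control libraries, and 5 overlapped. Groups did not overlap for 64.8% of single genes in these data, which is the nearest background to this count. No such share was computed for ratios of other genes. Each exact two-sided permutation test gave at least p = 0.1, the smallest that 3 against 3 allow, and no ratio passed after adjustment over the 17 (lowest adjusted p = 0.142).

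For cysteine, the CARS1 to CARS2 log2 ratio was 0.88, 0.95 and 0.90 in knockdown libraries, against 1.97, 2.16 and 1.91 in control libraries. CARS1 thus had a value 1.84 to 1.93 times that of CARS2 in knockdown libraries, against 3.77 to 4.48 times in control libraries, the widest gap among the 17 pairs. For alanine, the AARS1 to AARS2 log2 ratio was 2.97, 2.83 and 2.90 in knockdown libraries, against 3.86, 4.11 and 3.87 in control libraries. In these amino acids the cytosolic enzyme fell and the mitochondrial enzyme rose, and the same held for valine, with a mean log2 ratio of 2.11 ± 0.07 in knockdown cells and 2.68 ± 0.02 in control cells (SD, n = 3 each).

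For isoleucine and methionine both enzymes fell by similar amounts, and the ratio moved by less than 0.01 on the log2 scale. The RARS1 to RARS2 log2 ratio went the other way, at 2.33, 2.12 and 2.29 in knockdown libraries, against 1.92, 1.90 and 1.82 in control libraries.

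**Figure D4:**
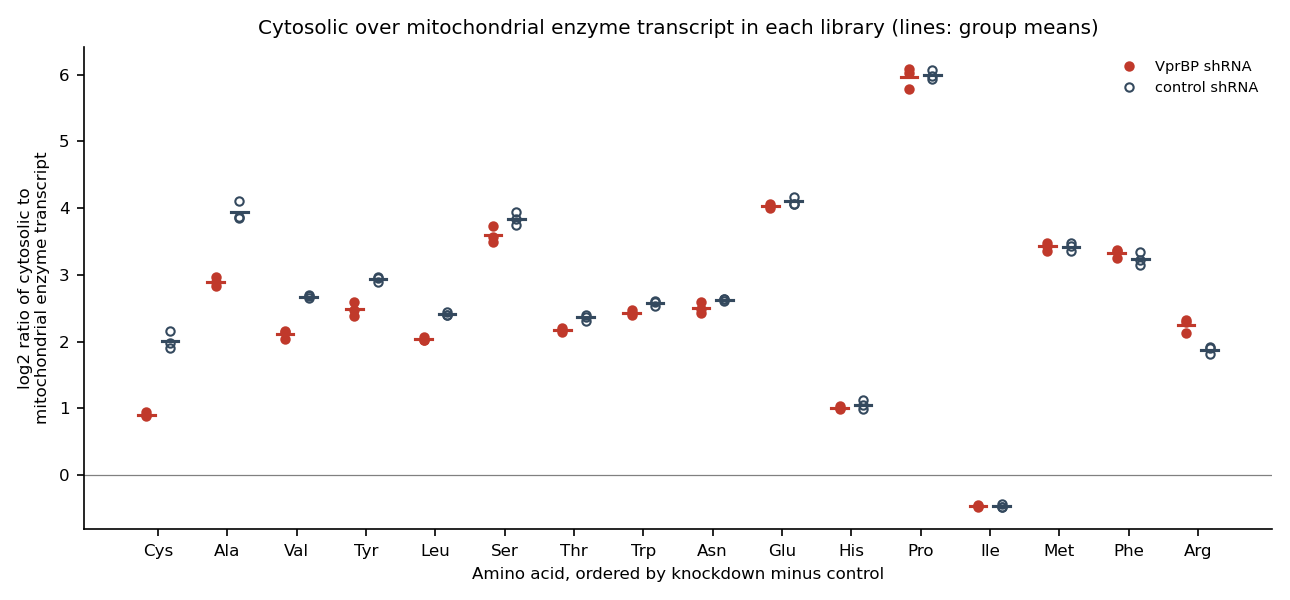
Log2 ratio of the cytosolic to the mitochondrial enzyme transcript for 16 amino acids, not corrected for length, with each VprBP shRNA library as a filled point left of each control library as an open point and group means as lines. The largest shifts are downward for cysteine and alanine, and arginine is shifted upward.

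Of 35 listed ATF4 pathway genes, 23 fell, 6 rose and 6 had no call; the median log2 fold change was -0.30. Thus 65.7% fell and 17.1% rose, against 27.8% and 33.0% of all genes, and the list was chosen with earlier results known. ATF4 itself had 447, 431 and 436 in knockdown libraries, against 579, 573 and 575 in control libraries (log2 fold change -0.40, SE 0.03, limma adjusted p = 9.91e-09). The decreases of CTH, which makes cysteine from cystathionine, CHAC1, which degrades glutathione, and JDP2, a repressor of the AP-1 family, exceeded those of any synthetase, at 3.04-fold, 2.51-fold and 2.44-fold. ASNS, which makes asparagine and is the classic ATF4 target, fell to 82.3 ± 2.45 in knockdown cells, against 148 ± 10.4 in control cells (SD, n = 3 each), and is named after its values were seen. The list was not uniform. ATF5 rose 2.45-fold, the interferon-induced kinase gene EIF2AK2 rose 2.08-fold and PPP1R15A, which directs the phosphatase that reverses eIF2alpha phosphorylation, rose 1.49-fold.

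Of 20 genes that handle tRNA, 18 were listed, of which 4 fell, 4 rose and 10 had no call. The called share was 44.4%, against 60.9% of all genes. In each direction it was 22.2%, against 27.8% of all genes lower and 33.0% higher. The median log2 fold change of this list was -0.06. XPOT, the exportin that carries tRNA out of the nucleus and a known ATF4 target, had 265, 270.5 and 288 in knockdown libraries, against 378, 392.2 and 381 in control libraries. Its decrease of 1.40-fold (log2 fold change -0.48, SE 0.04, limma adjusted p = 8.04e-09) was the largest of this list. The selenocysteine genes were split, with SEPSECS and SECISBP2 1.24-fold and 1.17-fold lower, although the groups of both overlapped, and SEPHS2 1.19-fold higher. DTD1, which removes D-amino acids from tRNA, and PTRH2, a peptidyl-tRNA hydrolase, were higher, with log2 fold changes of 0.21 and 0.17. The mitochondrial amidotransferase that makes glutaminyl-tRNA in place of a mitochondrial glutamine enzyme has GATB, GATC and QRSL1 as subunits. QRSL1 was called lower (log2 fold change -0.21, limma adjusted p = 0.0166) although its groups overlapped, and GATB and GATC were not called; these 3 are named for their role.

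Genes that act after charging showed no common direction. All 6 cytosolic elongation genes were called, 4 higher and 2 lower. Of all genes, 60.9% were called, 33.0% higher and 27.8% lower. EIF5A, EEF1D and EEF1B2 were higher, with log2 fold changes of 0.26, 0.19 and 0.18, and EEF2 and EEF1G were lower, with log2 fold changes of -0.30 and -0.17. EEF1A1, which delivers charged tRNA to the ribosome, was also called higher, with a log2 fold change of 0.07. Of 10 mitochondrial translation factor genes, 1 rose, 1 fell and 8 were not called. This called share of 20% lay below the 60.9% of all genes, and the difference was not tested. GFM1, a mitochondrial elongation factor, had 63.1, 65.7 and 65.8 in knockdown libraries, against 49.6, 45.1 and 49.2 in control libraries (log2 fold change 0.43, SE 0.05, limma adjusted p = 1.92e-06). MTRF1, a mitochondrial release factor family gene, was 1.21-fold lower (limma adjusted p = 0.0415), and TUFM, which brings charged tRNA to the mitochondrial ribosome, was not called (limma adjusted p = 0.810).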

How the data were processed

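Messenger RNA was sequenced from 6 PC3 libraries, 3 with VprBP shRNA and 3 with control shRNA. The deposited file is named as raw counts, but per the values the authors deposited a scaled signal: estimated read numbers multiplied by 1 step per library, so that 75th percentiles nearly match. Within a tolerance of 0.02 reads, 55.4% to 64.8% of a library's values came out whole, so no count model was fitted. Per the submitters' processing notes, Partek and hg38 were used; the sources used here give no aligner, quantifier, strand setting or scaling. Every gene of the table has a library with at least 150.0 estimated reads, and members had at least 194.0 in every library.

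For all 12227 genes, log2(value + 0.5) was fitted, with no further filter, by limma 3.58.1 (R 4.3.3) under a trended prior, and p-values were adjusted by Benjamini-Hochberg. Fold changes are on that scale; percentages and folds are ratios of mean values. The fit was tested on simulated data with changes of 1.25-fold, 1.5-fold and 2-fold, of which 82.1%, 95.5% and 100% were recovered. It also called 8 unchanged genes. Smaller changes, such as those of EPRS1 and TARS1, were not simulated. Members, lists and motifs were chosen with earlier results of these data known. Named in full were the 6 largest called changes in each direction, 9 members fixed by name and up to 3 genes per direction of each further list; other members were added after their values were seen. Same-numbered libraries did not deviate together, so the reported fit has no block. The alternatives were other scalings, pseudocounts, a mean of at least 5, limma-voom, a replicate block, a fold minimum and leaving out each library. 2 members are counted in the totals but not reported by name here, nor drawn in the plots of single genes.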

Additional observations from a re-analysis of the deposited data

How the results depend on the processing

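Of the 27 called members, 23 kept their direction and call under 13 alternatives: median-ratio and library-size scaling, a mean of at least 5, pseudocounts of 0.1 and 1, limma-voom, the replicate block and leaving out each library. The others were EPRS1, TARS1, LARS2 and RARS2. Leaving out 1 library gave 14 to 16 members lower and 10 to 11 higher, 11 to 13 cytosolic enzymes lower, 5 mitochondrial enzymes higher in each case, 9 to 11 ATF4-responsive synthetases lower (a count added after the data were seen), 12 to 14 enzyme ratios without overlap, 6697 to 7405 called genes and a DCAF1 log2 fold change of -0.99 to -0.95.

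With a fold minimum of 1.5 (treat in limma), 651 genes were called and 0 members in either direction, so that the cytosolic, mitochondrial and ATF4-responsive counts were 0 too. At an unadjusted p under 0.05 that test also gave 0 members, and 1 member differed by at least 1.5-fold on the fitted scale. Limma-voom without the minimum called 17 lower and 11 higher.

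The replicate block could not be taken as pairing, since same-numbered libraries had correlations of deviations of 0.03, -0.18 and -0.17. With the block, 7042 genes, 15 members lower and 10 higher were called; TARS1 (adjusted p = 0.107) and RARS2 (adjusted p = 0.0570) lost their calls.

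AIMP2 was called with a mean of at least 5 (adjusted p = 0.0472), with a pseudocount of 1 (0.04997), with limma-voom (0.0343) and without knockdown replicate 2 (0.0368) or control replicate 2 (0.00850). The sign turned only for uncalled genes near 0: FARSA had a log2 fold change of -0.011 under median-ratio and -0.0085 under library-size scaling, and -0.0096 to 0.042 when 1 library was left out. With 1 library left out, SARS2 ranged from -0.080 to 0.083 and EEF1E1 from -0.064 to 0.052. The cause was not tested.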
